A study of Mus musculus with 12 samples.

Results

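Across the 12 libraries, 49 proteasome genes were described, out of 57010 genes in the deposited count table. They are the protein-coding genes whose mapped symbol begins with Psma, Psmb, Psmc, Psmd, Psme, Psmf or Psmg followed by a number, and whose raw count averaged 10 or more over the libraries. Of 50 protein-coding genes with such a symbol, Psmb11, the thymus-specific beta subunit, was left out with a mean count of 3.83. The members nearest to the limit were Psma8 with a mean count of 47.3 and Psmc3ip with 49.5. The members comprised 8 alpha subunits, 7 constitutive beta subunits, 3 immunoproteasome beta subunits, 6 ATPases and 11 non-ATPase subunits of the 19S particle, 3 chaperones that assemble 19S, 4 chaperones that assemble 20S, and 6 activators or inhibitors. The remaining member, Psmc3ip, matched by its symbol only: it encodes a meiotic recombination factor and not a part of the proteasome.

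The proteasome is the protease that degrades proteins tagged with ubiquitin. Its 20S core is a barrel of stacked alpha and beta rings, with the proteolytic sites inside on the beta subunits Psmb5, Psmb6 and Psmb7. The 19S regulatory particle caps the barrel, binds ubiquitin, removes it and unfolds the substrate with a ring of ATPases. Interferon signalling is known to induce Psmb8, Psmb9 and Psmb10, which replace the constitutive catalytic subunits in the immunoproteasome, and the PA28 activator Psme1 and Psme2. In macrophages and dendritic cells the peptides made by the core feed MHC class I presentation, including cross-presentation of engulfed antigen.

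The cells were large peritoneal macrophages, sorted as F4/80 high and MHC class II low from female mice that were wild type (WT) or lacked the phosphatidylserine receptor Tim4 (Tim4KO). The challenged mice received ID8ZGO, a mouse ovarian tumour line expressing ZsGreen and OVA, into the peritoneal cavity at 8 weeks of age, and their cells were taken 24 hours later. Only ZsGreen-positive macrophages were sorted from challenged mice, so that challenge and uptake were measured together. The groups were WT naive and WT ID8, and Tim4KO naive and Tim4KO ID8, each with 3 libraries. The labels used here do not give the Tim4 allele, the strain or the age of the naive mice. Nor do they say whether a library came from 1 mouse or a pool. The p-values therefore measure the spread between these libraries, which may be technical.

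Library totals ran from 7358559 to 23170244 counts, and 3 counts corresponded to 0.129 to 0.408 CPM (counts scaled to the library total). Levels below are CPM normalized by TMM (trimmed mean of M values), listed for libraries 1, 2 and 3. Timd4, the gene of Tim4, stood at 1178, 1279 and 1489 CPM in WT naive and 1115, 1452 and 883 CPM in WT ID8, against 7.71, 7.32 and 7.21 CPM in Tim4KO naive and 1.92, 1.85 and 1.38 CPM in Tim4KO ID8, and so was low in every library labelled Tim4KO. The summed level of 12 large peritoneal macrophage markers was 66120 to 76280 CPM in the naive libraries and 33450 to 38160 CPM in the ID8 libraries, while its genes went both ways: 4 were called higher and 3 lower in WT ID8, and 3 higher and 4 lower in Tim4KO ID8. The summed level of 7 neutrophil markers was 6.71 to 10.1 CPM in naive and 11.7 to 32.5 CPM in ID8 libraries (3 called higher in WT and 2 in Tim4KO). Sums of 6 mast cell markers were 13.3 to 38.99 CPM in naive and 2.302 to 9.53 CPM in ID8 libraries (5 called lower in WT and 2 in Tim4KO), and those of 6 B cell markers 8.34 to 21.8 and 3.44 to 8.52 CPM (4 called lower in WT and 1 in Tim4KO). Sums of 8 markers of small peritoneal macrophages or dendritic cells were 240.6 to 434 CPM in naive and 99.6 to 346 CPM in ID8 libraries (4 called lower in WT and 1 in Tim4KO). Markers of T or NK cells summed to at most 7.80 CPM. The 10 markers of epithelial or tumour cells summed to 5.14 to 23.1 CPM in naive and 1.095 to 4.89 CPM in ID8 libraries. Of these markers 3 were tested, and 2 were called lower in WT and 1 in Tim4KO. Some libraries stood apart. Tim4KO naive 1 had the highest value of its group for 45 of the 49 genes, WT naive 3 the lowest for 44, Tim4KO ID8 3 the lowest for 39, WT ID8 2 the highest for 37, Tim4KO ID8 2 the highest for 36 and Tim4KO naive 3 the lowest for 34. WT ID8 3 had a summed level of 24 cell-cycle genes of 4166 CPM, against 817.7 to 1250 CPM in the other ID8 libraries. In naive cells this sum ran from 355 to 623 CPM, and 8 of the genes were called higher in WT ID8 and 6 in Tim4KO ID8. Olfactory and vomeronasal receptor genes, taken as a measure of background, summed to 862, 314 and 443 CPM in WT naive. The sums were 246, 76.9 and 5.57 CPM in WT ID8, 336, 264 and 470 in Tim4KO naive and 39.5, 353 and 279 in Tim4KO ID8. In WT the groups did not overlap, so this sum cannot be fully separated from the challenge there. With the log2 of that sum as a covariate, 36 members were called in the WT challenge comparison below, where 21.4% of all tested genes were. In that of Tim4KO 34 were called, where 18.2% of all tested genes were. Among the genes described by library, the WT calls of Psmb1, Psmb7, Psmd5 and Psmd9 were lost. The part of the other differences in the results below was not tested.

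Most proteasome genes were higher in ID8 than in naive cells in both genotypes. In WT, 41 of 49 (83.7%) were called higher in ID8 and 0 lower at an adjusted p under 0.05, by edgeR's quasi-likelihood test with Benjamini-Hochberg adjustment over 15943 genes. Of all tested genes 31.8% were called in either direction and 19.5% were called higher. In Tim4KO, 31 of 49 (63.3%) were called higher and 0 lower, where 16.6% of all tested genes were called and 11.5% were called higher. The median log2 change of the members was 0.80 in WT against -0.04 over all tested genes, and 0.63 in Tim4KO against -0.05. Every ID8 library lay above every naive library for 44 members in WT, where 23.3% of all tested genes did so, and for 41 in Tim4KO, where 23.7% did. Upper-quartile scaling moved the median of all tested genes to -0.28 in WT and -0.17 in Tim4KO, with 32 and 27 members called and member medians of 0.55 and 0.51. In these bulk libraries, a change in the mix of cells and a change in RNA per cell cannot be told apart. Upper-quartile scaling ended the WT calls of Psmb1, Psmb7, Psmc6, Psmd5, Psmd9, Psmd10 and Psme4 and the Tim4KO calls of Psmb7 and Psme3, among the genes described by library below. The Tim4KO count depended on single libraries. It was 16 without Tim4KO naive 2 and 16 without Tim4KO naive 3, where 7.04% and 8.82% of all tested genes were called. It was 20 without Tim4KO ID8 1 and 19 without Tim4KO ID8 2, where 8.23% and 8.18% were. Without Tim4KO naive 1 it was 39, where 16.4% were. The share over all tested genes, 16.6% with every library, thus fell as well in these fits with fewer member calls. Without Tim4KO naive 2, and likewise without Tim4KO naive 3, the 15 lost calls were those of Psma2, Psma3, Psma7, Psmb1, Psmb3, Psmb7, Psmc2, Psmd1, Psmd4, Psmd7, Psme2, Psme3, Psmf1, Psmg1 and Psmg2. Of these genes, 11 were also lost without Tim4KO ID8 1, 12 without Tim4KO ID8 2 and 4 (Psmb7, Psmd4, Psmd7 and Psme3) without Tim4KO ID8 3.

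The 2 lists of called genes shared 30 genes, which are 73.2% of the WT list and 96.8% of the Tim4KO list. Psmf1 was called in Tim4KO and not in WT. Called in WT and not in Tim4KO were Psma4, Psmc1, Psmc6, Psmd5, Psmd6, Psmd9, Psmd10, Psmd11, Psmd12, Psme2b and Psme4. Psma4 and Psmd6 came near the limit in Tim4KO (edgeR adjusted p = 0.0587 and 0.0579). Each was called there in 5 of 8 alternative scalings, tests, filters and models. The WT call of Psme2b was lost without WT naive 2, WT naive 3 or WT ID8 2. Upper-quartile scaling and fitting only the compared groups lost it too. The interaction, given below, called 0 of 49 members with all libraries in edgeR. Neither list held Psma8, Psmb8, Psmb9, Psmb10, Psme1, Psmg3 or Psmg4. Among called genes the change reached 2-fold for 12 members in WT and 6 in Tim4KO, and Psmc3ip was among them in both. Neither the overlap of the 2 lists nor the share that met the 2-fold rule was counted over all tested genes.

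**Figure D1:**
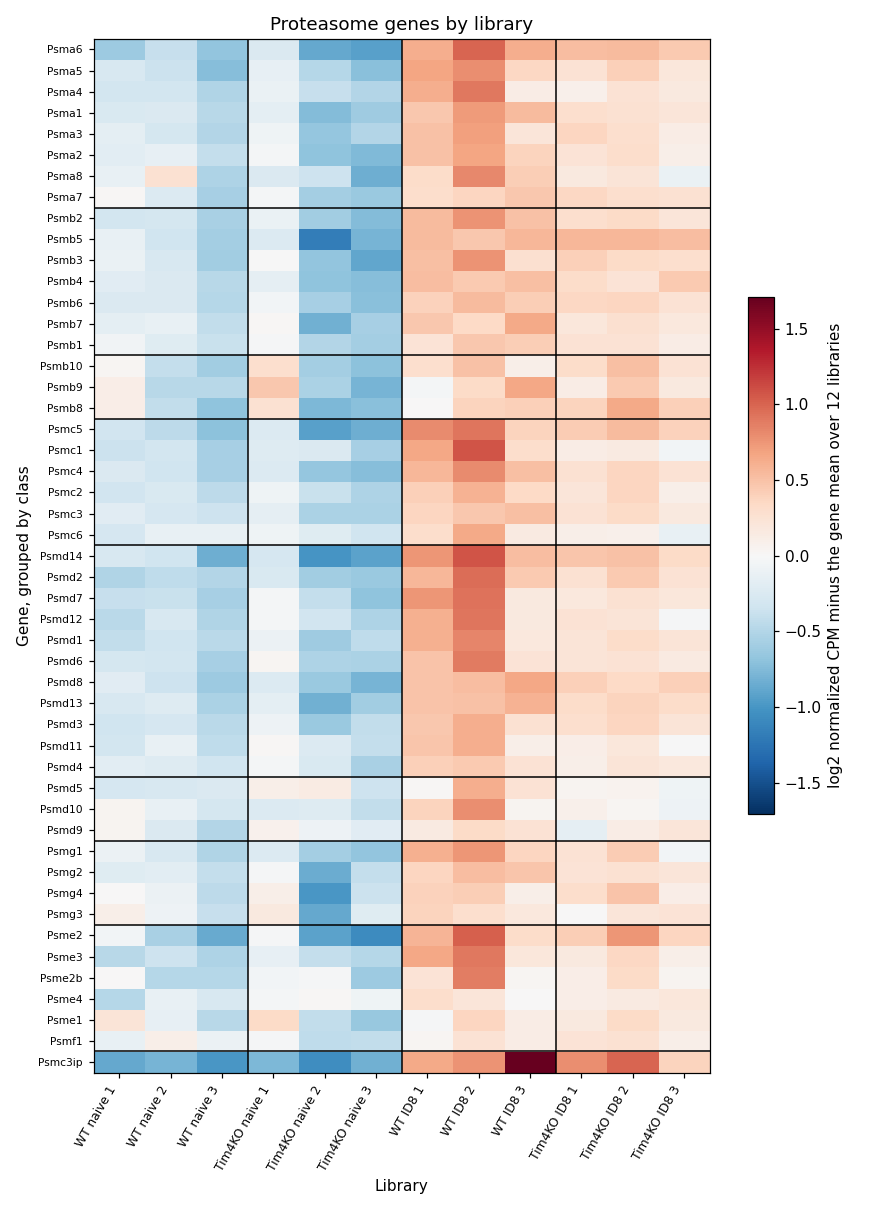
Level of each of the 49 genes (rows, grouped by class in the order alpha, constitutive beta, immunoproteasome, 19S ATPase, 19S non-ATPase, 19S chaperones, 20S chaperones, activators or inhibitors, Psmc3ip) in each of the 12 libraries (columns). Colour is log2 normalized CPM minus the gene's mean over the libraries. Red lies mostly in the ID8 columns, while the immunoproteasome rows of WT naive 1 and Tim4KO naive 1 are paler or redder than those of the other naive libraries.

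**Figure D2:**
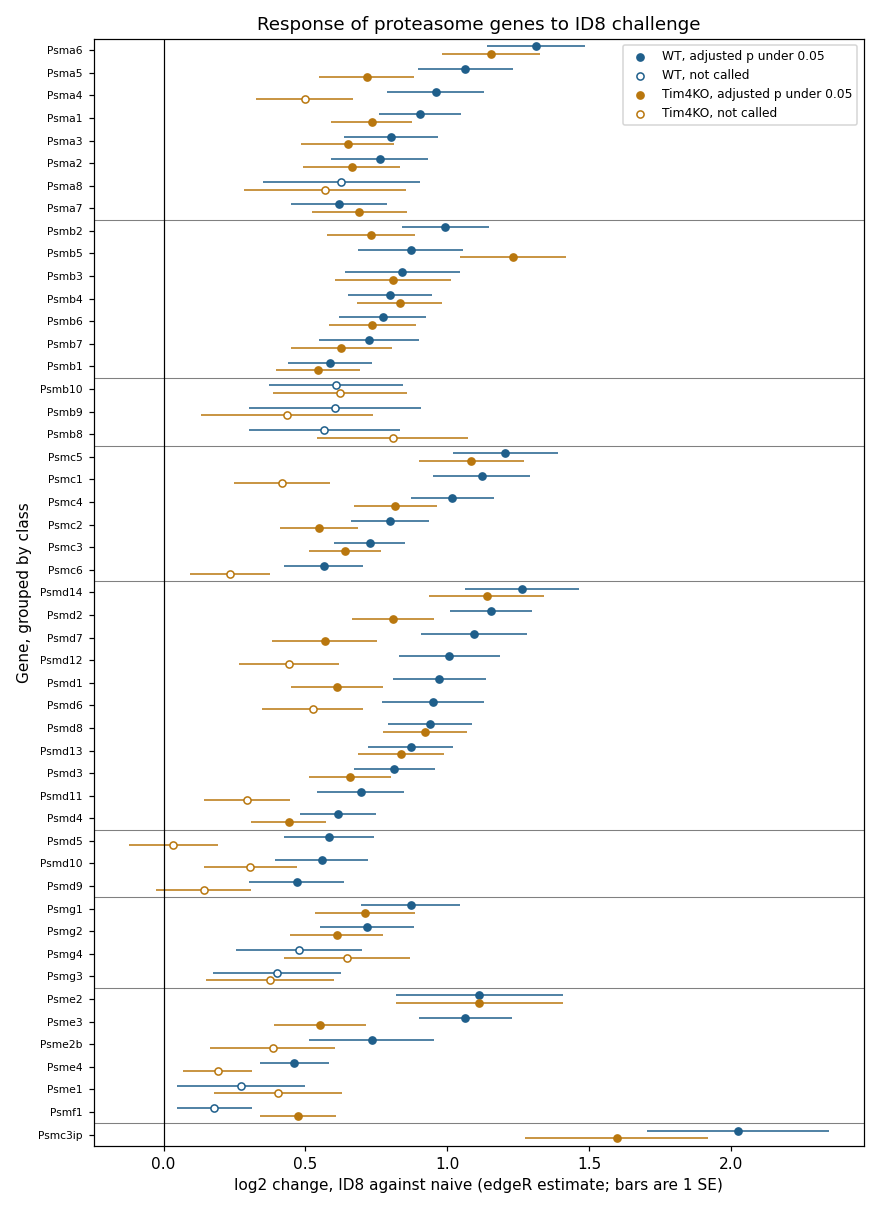
Log2 change between ID8 and naive cells for each of the 49 genes, in WT (blue) and Tim4KO (brown), with bars of 1 SE from the edgeR fit on 3 libraries a group. Filled points passed an adjusted p under 0.05, 41 in WT and 31 in Tim4KO, and none of the points lies below 0.

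The alpha subunits form the outer rings and the gate of the core. Of 8, 7 were called higher in WT and 6 in Tim4KO, with changes of 0.62 to 1.31 and 0.50 to 1.15 on the log2 scale. Psma6 stood at 120.3, 141 and 116 CPM in the WT naive libraries, 284, 368 and 285 in WT ID8, 156, 101 and 97.3 in Tim4KO naive and 266, 268 and 253 in Tim4KO ID8. All ID8 libraries exceeded all naive libraries of the same genotype. The fit, whose differences are ID8 minus naive with their standard error (SE), gave Psma6 a log2 difference of 1.31 ± 0.17 in WT (adjusted p = 9.07e-05) and of 1.15 ± 0.17 in Tim4KO (adjusted p = 4.96e-04), the largest of the alpha genes in both genotypes. Psma5, another alpha-ring subunit, stood at 119, 111 and 86.5 CPM in the WT naive libraries, 228, 249 and 183 in WT ID8, 129.5, 102 and 87.5 in Tim4KO naive and 169.9, 190.1 and 164 in Tim4KO ID8. Its groups did not overlap, with a log2 difference of 1.06 ± 0.17 in WT (adjusted p = 3.54e-04) and of 0.72 ± 0.17 in Tim4KO (adjusted p = 0.00909). Psma8, the testis-specific counterpart of Psma7, had the lowest level per length of the alpha genes (1.89 CPM per kb in WT naive) and stood at 3.14, 4.07 and 2.38 CPM in the WT naive libraries, 4.26, 6.02 and 4.56 in WT ID8, 2.87, 2.66 and 1.92 in Tim4KO naive and 3.84, 3.97 and 3.17 in Tim4KO ID8. Its ID8 libraries also lay above the naive ones in each genotype, but the gene was not called, with a log2 difference of 0.63 ± 0.28 in WT (adjusted p = 0.0918) and of 0.57 ± 0.29 in Tim4KO (adjusted p = 0.197). Without WT ID8 1 it was called in WT (edgeR adjusted p = 0.0495).

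Levels per kilobase of the principal transcript were unequal among the 14 constitutive subunits of the core without Psma8. Psma7 had the highest level in all 4 groups, 362 CPM per kb in WT naive and 556 in WT ID8. Psmb7 had the lowest, 23.4 CPM per kb in WT naive and 38.5 in WT ID8. The ratio between the extremes was 15.5 in WT naive and 14.4 in WT ID8, and 15.9 in Tim4KO naive and 16.5 in Tim4KO ID8. Among the 17 subunits of the 19S particle this ratio was 3.26 to 4.19. The part of transcript capture in these differences was not tested.

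All 7 constitutive beta subunits rose in both genotypes, by 0.59 to 0.99 on the log2 scale in WT and by 0.54 to 1.23 in Tim4KO. Psmb5 carries the chymotrypsin-like site, Psmb6 the caspase-like site and Psmb7 the trypsin-like site. Their immunoproteasome counterparts are Psmb8, Psmb9 and Psmb10. Promoter stretches of Psmb5 and Psmb6 are shown beside those of the 3 immunoproteasome genes, to set the catalytic subunits that replace each other side by side. Each is the 150 bases upstream of the start in RefSeq on build GRCm38.p6, 5′ to 3′ on the strand of the gene. Capitals mark matches, on either strand, to 5 motifs: the antioxidant response element core TGACNNNGC, CCAAT, the interferon-stimulated response element (GAAA, any 2 bases, GAAA), the gamma-activated site TTCNNNGAA and the GC box GGGCGG. The RefSeq table used here held no Psmb7 entry.

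Psmb5, chr14:54617996-54618145, minus strand: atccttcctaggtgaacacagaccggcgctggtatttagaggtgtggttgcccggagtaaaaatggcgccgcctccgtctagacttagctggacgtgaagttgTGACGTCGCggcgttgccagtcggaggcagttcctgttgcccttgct
Psmb6, chr11:70525207-70525356, plus strand: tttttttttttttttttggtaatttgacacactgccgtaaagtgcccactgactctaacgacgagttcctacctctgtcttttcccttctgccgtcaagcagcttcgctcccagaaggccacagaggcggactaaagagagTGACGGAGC
Psmb8, chr17:34198045-34198194, plus strand: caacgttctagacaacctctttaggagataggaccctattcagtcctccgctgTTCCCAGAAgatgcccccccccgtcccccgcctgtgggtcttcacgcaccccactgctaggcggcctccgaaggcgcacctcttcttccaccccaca
Psmb9, chr17:34187331-34187480, minus strand: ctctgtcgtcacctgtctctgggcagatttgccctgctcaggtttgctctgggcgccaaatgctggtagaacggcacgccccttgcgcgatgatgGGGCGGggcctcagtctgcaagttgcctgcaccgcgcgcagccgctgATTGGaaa
Psmb10, chr8:105938393-105938542, minus strand: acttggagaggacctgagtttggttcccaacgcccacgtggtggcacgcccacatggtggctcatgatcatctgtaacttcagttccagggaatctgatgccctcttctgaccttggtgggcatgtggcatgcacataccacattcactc

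Psmb5 and Psmb6 each held the antioxidant response element core, first base at -47 and at -9 from the start. Psmb8 held the gamma-activated site at -97. Psmb9 held a GC box at -55 and a CCAAT box at -8, and the Psmb10 stretch held none of these letters. The RefSeq start need not be the one in use: in GENCODE vM21, on the same build, 6 of 7 Psmb10 transcripts start downstream of it, the nearest by 288 bases, as do 5 of 7 Psmb8 transcripts, the nearest by 175 bases. Over the whole windows, which run from 250 bases before to 50 after a start, 41 members matched with 44 windows. The antioxidant response element core was in 13.6% of member windows and 12.4% of all 32851 windows. The other shares were 31.8% and 37.4% for CCAAT, 11.4% and 3.44% for the interferon-stimulated response element, 6.82% and 8.3% for the gamma-activated site, and 54.5% and 35.7% for the GC box. The 5 member windows with the interferon-stimulated response element were those of Psmb3, Psmd4, Psmd9, Psme1 and Psmg4. None belonged to Psmb8, Psmb9 or Psmb10. A match describes letters and not a bound site.

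Psmb5 stood at 41.4, 35.9 and 30.3 CPM in the WT naive libraries, 66.2, 62.6 and 67.4 in WT ID8, 38.7, 19.97 and 26.1 in Tim4KO naive and 67.5, 67.5 and 65.5 in Tim4KO ID8. The groups did not overlap within either genotype, and the fit gave a log2 difference of 0.87 ± 0.18 in WT (adjusted p = 0.00279) and of 1.23 ± 0.19 in Tim4KO (adjusted p = 5.42e-04). Gm3375, a gene of near-identical sequence, had 6.08% of the Psmb5 count, so that a small part of these reads may belong to either. Psmb6 stood at 112, 112 and 94.3 CPM in the WT naive libraries, 173, 192 and 177 in WT ID8, 128, 89.3 and 80.8 in Tim4KO naive and 169, 171 and 156 in Tim4KO ID8, again with no overlap, and with a log2 difference of 0.77 ± 0.15 in WT (adjusted p = 0.00179) and of 0.74 ± 0.15 in Tim4KO (adjusted p = 0.00468). For Psmb7 the libraries held 28.4, 29.3 and 23.8 CPM in the WT naive libraries, 43.96, 40.2 and 49.9 in WT ID8, 32.2, 17.98 and 21.5 in Tim4KO naive and 36.4, 38.5 and 36.1 in Tim4KO ID8. The fit gave Psmb7 a log2 difference of 0.72 ± 0.18 in WT (adjusted p = 0.00678) and of 0.63 ± 0.18 in Tim4KO (adjusted p = 0.026), and its call in Tim4KO was lost in 5 of the 12 fits that left out a library.

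Of the other beta subunits, Psmb2 and Psmb4 gave the smallest p in WT and Psmb1 the largest. Psmb2 stood at 137, 138 and 116 CPM in the WT naive libraries, 248, 291 and 240.4 in WT ID8, 158, 113 and 102 in Tim4KO naive and 208, 214 and 197 in Tim4KO ID8, with a log2 difference of 0.99 ± 0.15 in WT (adjusted p = 3.17e-04) and of 0.73 ± 0.15 in Tim4KO (adjusted p = 0.00492). Psmb4 stood at 62.2, 59.7 and 51.3 CPM in the WT naive libraries, 103, 96.8 and 102 in WT ID8, 63.7, 44.3 and 42.8 in Tim4KO naive and 88.2, 83.6 and 96.8 in Tim4KO ID8, with a log2 difference of 0.80 ± 0.15 in WT (adjusted p = 0.00115) and of 0.83 ± 0.15 in Tim4KO (adjusted p = 0.00176). Psmb1 stood at 171, 153 and 136 CPM in the WT naive libraries, 209, 244 and 238 in WT ID8, 176, 126 and 119 in Tim4KO naive and 209.7, 209.9 and 194 in Tim4KO ID8. Even for Psmb1 the ID8 and naive libraries did not overlap, with a log2 difference of 0.59 ± 0.15 in WT (adjusted p = 0.00839) and of 0.54 ± 0.15 in Tim4KO (adjusted p = 0.0213).

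The immunoproteasome subunits were not called in either genotype with all libraries in edgeR, 0 of 3 in each, although all estimates were above 0, and the calls depended on the setting. Psmb8 stood at 169, 117 and 97.6 CPM in the WT naive libraries, 157, 203 and 207 in WT ID8, 187, 92.01 and 95.4 in Tim4KO naive and 203, 246 and 207 in Tim4KO ID8. In WT, ID8 1 lay below naive 1, while in Tim4KO all ID8 libraries lay above all naive ones. The fit gave a log2 difference of 0.57 ± 0.27 in WT (adjusted p = 0.116) and of 0.81 ± 0.27 in Tim4KO (adjusted p = 0.0572). Psmb9 stood at 71.2, 47.3 and 47.1 CPM in the WT naive libraries, 63.99, 82.7 and 104 in WT ID8, 90.4, 45.1 and 37.9 in Tim4KO naive and 71.6, 89.5 and 73.7 in Tim4KO ID8, overlapping in both genotypes, with a log2 difference of 0.60 ± 0.30 in WT (adjusted p = 0.14) and of 0.44 ± 0.30 in Tim4KO (adjusted p = 0.373). Psmb10 stood at 155, 114 and 99.8 CPM in the WT naive libraries, 185, 215 and 162 in WT ID8, 184, 101 and 93.2 in Tim4KO naive and 188, 216 and 179 in Tim4KO ID8, overlapping in Tim4KO only, with a log2 difference of 0.61 ± 0.24 in WT (adjusted p = 0.0635) and of 0.62 ± 0.24 in Tim4KO (adjusted p = 0.0913). Naive library 1 was the highest of its group for all of these genes in each genotype. Without Tim4KO naive 1, all of Psmb8, Psmb9 and Psmb10 were called higher in both genotypes, with log2 changes in Tim4KO of 1.24, 0.94 and 1.02. The fit with a replicate block called Psmb10 in both genotypes and Psmb8 in Tim4KO. DESeq2 and limma voom called Psmb8 in Tim4KO, and limma voom also called Psmb10 in WT. With no filter on low counts, all were called but Psmb9 in Tim4KO. In WT, Psmb10 was called in 5 of the 12 fits that left out a library (without WT naive 1, Tim4KO naive 1, Tim4KO naive 3, WT ID8 1 or WT ID8 3) and Psmb8 in 3 (without WT naive 1, Tim4KO naive 1 or WT ID8 1). In Tim4KO, Psmb8 was called in 3 (without WT naive 1, WT naive 3 or Tim4KO naive 1).

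The level of each immunoproteasome subunit was set against that of its constitutive counterpart, both per kilobase. Psmb8 relative to Psmb5 was 2.26, 1.79 and 1.78 in WT naive, 1.31, 1.79 and 1.70 in WT ID8, 2.67, 2.54 and 2.02 in Tim4KO naive and 1.66, 2.01 and 1.75 in Tim4KO ID8. In Tim4KO the ratios of all ID8 libraries lay below those of all naive libraries, narrowly at 2.011 against 2.016, and in WT they overlapped. A difference between the genotypes in this ratio was not tested. Psmb9 relative to Psmb6 averaged 0.307 ± 0.064 (SD, n = 3) in WT naive, 0.273 ± 0.066 in WT ID8, 0.331 ± 0.076 in Tim4KO naive and 0.279 ± 0.03 in Tim4KO ID8, with overlap in both genotypes. Psmb10 relative to Psmb7 averaged 4.003 ± 0.733 (SD, n = 3) in WT naive, 3.77 ± 0.928 in WT ID8, 4.63 ± 0.682 in Tim4KO naive and 4.64 ± 0.303 in Tim4KO ID8, with overlap in both genotypes. The direction of that last ratio changed in each genotype when single libraries were left out.

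**Figure D3:**
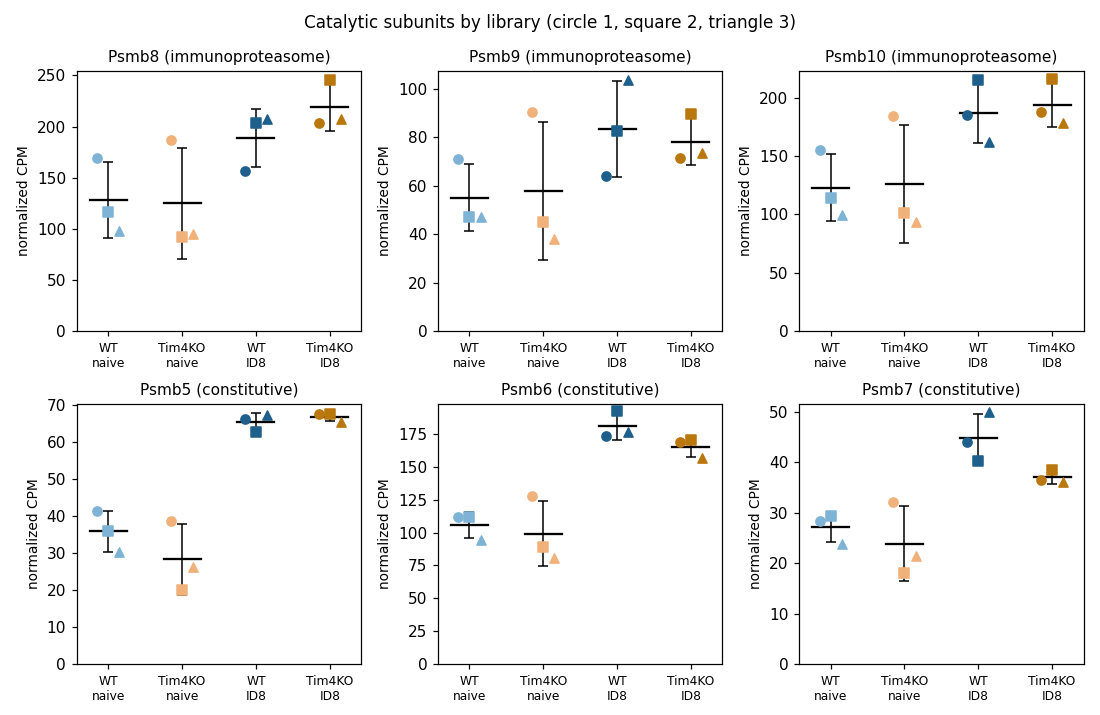
Normalized CPM of the 3 immunoproteasome subunits (top) and their constitutive counterparts (bottom) in each library, with the group mean (line) and SD (bar, n = 3). The constitutive genes separate naive from ID8 libraries in both genotypes, whereas in the top row naive library 1 (circle) reaches into or near the ID8 range.

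The 6 ATPases of the 19S base unfold the substrate and open the gate. All 6 were called higher in WT and 4 in Tim4KO, with log2 changes of 0.56 to 1.20 and 0.23 to 1.08. Psmc4 stood at 89.3, 83.6 and 71.7 CPM in the WT naive libraries, 157, 186 and 152 in WT ID8, 89.7, 66.97 and 63.8 in Tim4KO naive and 127, 136 and 125 in Tim4KO ID8, with no overlap within a genotype. It gave a log2 difference of 1.02 ± 0.15 in WT (adjusted p = 1.75e-04) and of 0.82 ± 0.15 in Tim4KO (adjusted p = 0.00176). Psmc1 stood at 152, 158 and 133 CPM in the WT naive libraries, 310.4, 411 and 242 in WT ID8, 168, 165 and 132 in Tim4KO naive and 214, 218 and 189 in Tim4KO ID8. WT ID8 2 was the highest library, and the Tim4KO ID8 libraries all lay below the WT ID8 ones. The fit gave a log2 difference of 1.12 ± 0.17 in WT (adjusted p = 2.79e-04) and of 0.42 ± 0.17 in Tim4KO (adjusted p = 0.11). Psmc6 stood at 90.4, 101 and 102 CPM in the WT naive libraries, 137, 174 and 123 in WT ID8, 105, 95.6 and 87.01 in Tim4KO naive and 118, 118 and 102 in Tim4KO ID8, where Tim4KO naive and Tim4KO ID8 overlapped. It gave a log2 difference of 0.56 ± 0.14 in WT (adjusted p = 0.00724) and of 0.23 ± 0.14 in Tim4KO (adjusted p = 0.286).

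The 11 non-ATPase subunits form the lid and the scaffold of the 19S particle. All 11 were called higher in WT and 8 in Tim4KO, with log2 changes of 0.61 to 1.26 and 0.29 to 1.14. Psmd2, a scaffold subunit of the base, stood at 149.9, 158 and 151 CPM in the WT naive libraries, 317, 413 and 292 in WT ID8, 178, 141 and 138 in Tim4KO naive and 256, 291 and 254 in Tim4KO ID8. It had the smallest p of all members in WT, with a log2 difference of 1.15 ± 0.15 in WT (adjusted p = 6.68e-05) and of 0.81 ± 0.14 in Tim4KO (adjusted p = 0.00175). Psmd8, a lid subunit, stood at 106, 94.8 and 79.2 CPM in the WT naive libraries, 170.4, 174 and 191 in WT ID8, 103, 78.3 and 69.9 in Tim4KO naive and 161, 154 and 161 in Tim4KO ID8, with a log2 difference of 0.94 ± 0.15 in WT (adjusted p = 3.67e-04) and of 0.92 ± 0.15 in Tim4KO (adjusted p = 8.88e-04). Psmd11, another lid subunit, stood at 87.5, 99.7 and 80.5 CPM in the WT naive libraries, 151, 166 and 116 in WT ID8, 110.1, 92.7 and 81.9 in Tim4KO naive and 117, 124 and 108 in Tim4KO ID8, where Tim4KO groups overlapped, with a log2 difference of 0.69 ± 0.15 in WT (adjusted p = 0.00355) and of 0.29 ± 0.15 in Tim4KO (adjusted p = 0.213). Psmd14, the deubiquitinase of the lid, had the largest difference of the class, 1.26 ± 0.20 in WT and 1.14 ± 0.20 in Tim4KO on the log2 scale.

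**Figure D4:**
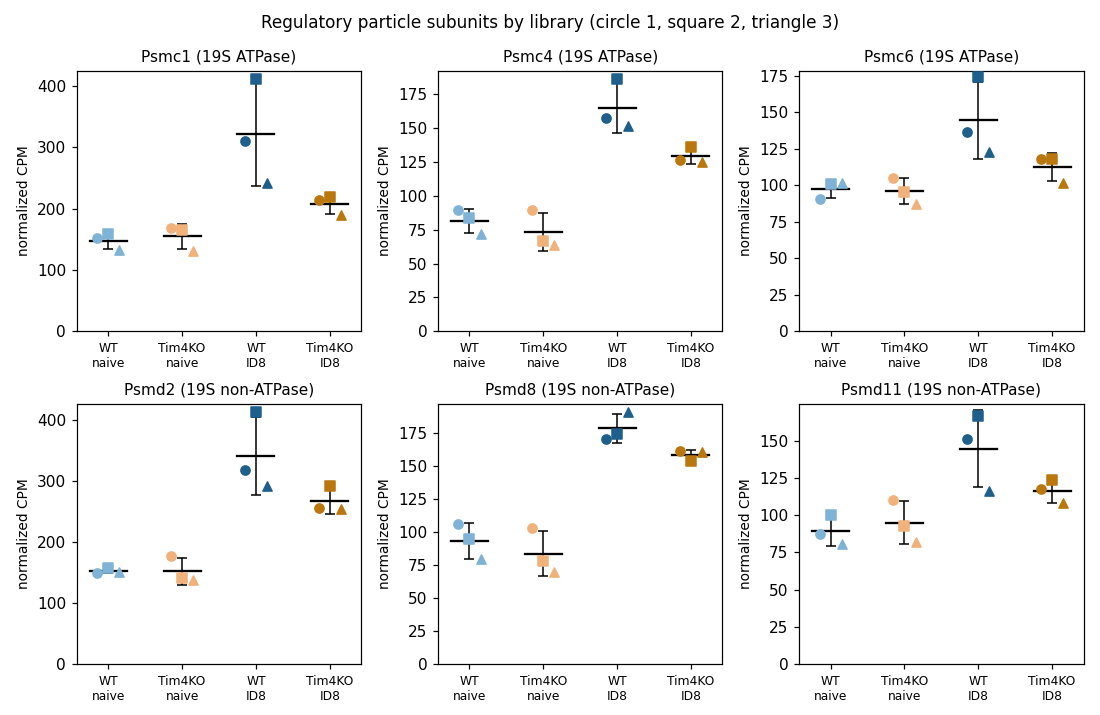
Normalized CPM of 3 ATPase (top) and 3 non-ATPase (bottom) subunits of the 19S particle in each library, with the group mean (line) and SD (bar, n = 3). WT ID8 libraries lie above the naive ones in every panel. The Tim4KO ID8 libraries lie below those of WT ID8 in every panel but that of Psmd11. For Psmd2 they do so narrowly, with 291.0 CPM in Tim4KO ID8 2 against 291.6 CPM in WT ID8 3. The panels were chosen by p for ID8 against naive in WT, which uses the same WT ID8 libraries. In the whole classes, 4 of 6 ATPases and 5 of 11 non-ATPase subunits had all Tim4KO ID8 libraries below all WT ID8 ones. Of all tested genes 8.56% did.

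The chaperones that assemble the 19S base were called in WT (3 of 3) and not in Tim4KO (0 of 3). Of all tested genes 31.8% were called in WT and 16.6% in Tim4KO. With all libraries in edgeR, 0 of the 3 were called in the interaction. Psmd10 stood at 55.7, 49.3 and 43.6 CPM in the WT naive libraries, 69.9, 93.1 and 55.7 in WT ID8, 45.5, 45.9 and 39.9 in Tim4KO naive and 57.2, 54.7 and 50.3 in Tim4KO ID8. It overlapped in WT, with a log2 difference of 0.56 ± 0.16 in WT (adjusted p = 0.0189) and of 0.31 ± 0.16 in Tim4KO (adjusted p = 0.232). Psmd5 stood at 43.9, 44.5 and 44.98 CPM in the WT naive libraries, 54.1, 82.1 and 63.4 in WT ID8, 57.6, 59.1 and 41.9 in Tim4KO naive and 55.4, 55.7 and 50.9 in Tim4KO ID8, with a log2 difference of 0.58 ± 0.16 in WT (adjusted p = 0.0125) and of 0.034 ± 0.16 in Tim4KO (adjusted p = 0.905). Psmd9 stood at 16.1, 13.2 and 11.04 CPM in the WT naive libraries, 17.4, 19.7 and 18.5 in WT ID8, 16.5, 14.8 and 13.6 in Tim4KO naive and 14.1, 17.2 and 18.2 in Tim4KO ID8, with a log2 difference of 0.47 ± 0.17 in WT (adjusted p = 0.0453) and of 0.14 ± 0.17 in Tim4KO (adjusted p = 0.615). These WT calls depended on single libraries and settings: without WT ID8 2 none of the 3 was called. Upper-quartile scaling lost all 3, as did fitting only the compared groups. Psmd9 and Psmd10 were also lost without WT naive 3, and Psmd9 without WT naive 2 and with the replicate block. Psmd9 was called in 2 of the 8 other settings.

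The chaperones that build the 20S core are Psmg1 and Psmg2, which act as a pair, and Psmg3 and Psmg4. Psmg1 and Psmg2 were called in both genotypes, Psmg3 and Psmg4 in neither. Psmg1 stood at 19.5, 17.4 and 14.6 CPM in the WT naive libraries, 31.8, 35.2 and 27.01 in WT ID8, 17.7, 13.98 and 13.1 in Tim4KO naive and 24.8, 28.3 and 20.3 in Tim4KO ID8, with a log2 difference of 0.87 ± 0.17 in WT (adjusted p = 0.00188) and of 0.71 ± 0.18 in Tim4KO (adjusted p = 0.0127). Psmg2 stood at 25.5, 25.98 and 22.1 CPM in the WT naive libraries, 37.6, 42.4 and 40.8 in WT ID8, 28.8, 16.2 and 22.2 in Tim4KO naive and 34.4, 35.1 and 33.8 in Tim4KO ID8, with a log2 difference of 0.72 ± 0.16 in WT (adjusted p = 0.00455) and of 0.61 ± 0.16 in Tim4KO (adjusted p = 0.02). Psmg3 stood at 9.86, 8.68 and 7.06 CPM in the WT naive libraries, 11.97, 11.3 and 10.5 in WT ID8, 10.4, 5.06 and 7.997 in Tim4KO naive and 9.30, 10.6 and 10.8 in Tim4KO ID8, with a log2 difference of 0.40 ± 0.22 in WT (adjusted p = 0.175) and of 0.37 ± 0.23 in Tim4KO (adjusted p = 0.289). The Tim4KO groups of Psmg3 overlapped and the WT groups did not.

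Activators and inhibitors bind the ends of the core in place of, or beside, the 19S particle. Of 6, 4 were called higher in WT and 3 in Tim4KO. Psme3, the nuclear PA28 gamma, stood at 89.7, 97.9 and 86.7 CPM in the WT naive libraries, 197, 233 and 143 in WT ID8, 113, 93.7 and 89.2 in Tim4KO naive and 140.0, 159.7 and 134 in Tim4KO ID8, with a log2 difference of 1.06 ± 0.16 in WT (adjusted p = 2.87e-04) and of 0.55 ± 0.16 in Tim4KO (adjusted p = 0.0309). Psme4, the activator PA200, stood at 54.4, 70.2 and 63.3 CPM in the WT naive libraries, 94.03, 88.3 and 76.9 in WT ID8, 74.4, 77.4 and 72.5 in Tim4KO naive and 82.8, 85.3 and 87.7 in Tim4KO ID8, with a log2 difference of 0.46 ± 0.12 in WT (adjusted p = 0.0109) and of 0.19 ± 0.12 in Tim4KO (adjusted p = 0.322). The WT call of Psme4 was also lost without WT naive 1. Psme1, the alpha subunit of PA28, stood at 147, 115 and 91.1 CPM in the WT naive libraries, 125, 163 and 138 in WT ID8, 159.7, 95.2 and 81.4 in Tim4KO naive and 143, 159.6 and 142 in Tim4KO ID8, overlapping in both genotypes, with a log2 difference of 0.27 ± 0.23 in WT (adjusted p = 0.353) and of 0.40 ± 0.23 in Tim4KO (adjusted p = 0.256). Its partner Psme2, the beta subunit, had the largest difference of the class in both genotypes, with a log2 difference of 1.11 ± 0.29 in WT (adjusted p = 0.0145) and of 1.11 ± 0.30 in Tim4KO (adjusted p = 0.024). Its WT call was lost without WT naive 3 (edgeR adjusted p = 0.0534), and its Tim4KO call without Tim4KO naive 2, Tim4KO naive 3, Tim4KO ID8 1 or Tim4KO ID8 2 (edgeR adjusted p up to 0.109). The nearly identical gene Psme2b had 20.2% of the Psme2 count, and reads of these 2 genes may have been divided between them by the counting. Psmf1, the inhibitor PI31, had a log2 difference of 0.18 ± 0.13 in WT (adjusted p = 0.299) and of 0.47 ± 0.13 in Tim4KO (adjusted p = 0.025), a call that was lost without the same 4 libraries and with no filter on low counts.

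Psmc3ip, the recombination factor, had the largest log2 difference of all members, at low levels of 1.52, 1.60 and 1.40 CPM in the WT naive libraries, 4.37, 4.73 and 9.08 in WT ID8, 1.64, 1.33 and 1.58 in Tim4KO naive and 4.84, 5.54 and 3.63 in Tim4KO ID8. It gave a log2 difference of 2.02 ± 0.32 in WT (adjusted p = 3.63e-04) and of 1.60 ± 0.32 in Tim4KO (adjusted p = 0.00387). WT ID8 3, the library with the highest cell-cycle sum, was also its highest, and the part of that in the result was not tested.

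Between the genotypes, no proteasome gene was called in either condition. In naive cells 0 of 49 were called, where 0.0439% of all tested genes were. By edgeR 0 members had an unadjusted p under 0.05, and 999 of 15943 tested genes did. DESeq2 and limma voom called 0 as well. Psme4 alone had no overlap and lay higher in Tim4KO, at 74.4, 77.4 and 72.5 against 54.4, 70.2 and 63.3 CPM, and 7.34% of all tested genes did so in that direction. In ID8 cells 0 of 49 were called, where 0.0565% of all tested genes were. By edgeR 11 members had an unadjusted p under 0.05, and 1935 of 15943 tested genes did. DESeq2 called 1 (Psmc1) and limma voom called 0. The estimates were negative for 44 of 49, with a median log2 difference of -0.25 (Tim4KO minus WT), against 0.014 over all tested genes. Without WT ID8 2 the members' median was -0.16. For 18 genes (36.7%) every Tim4KO ID8 library lay below every WT ID8 library, where 8.56% of all tested genes did so. They were Psma1, Psma2, Psma6, Psma8, Psmb2, Psmb4, Psmb6, Psmb7, Psmc1, Psmc3, Psmc4, Psmc6, Psmd2, Psmd4, Psmd8, Psmd13, Psmd14 and Psmg2. Psmc1 had the smallest p, with a difference of -0.63 ± 0.17 on the log2 scale (unadjusted p = 0.00202, adjusted p = 0.2). Without WT ID8 3, 6 genes were called lower in Tim4KO ID8, Psma4, Psmc1, Psmd7, Psmd10, Psmd12 and Psme3, and 5.74% of all tested genes were called then.

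The interaction asks whether the challenge response differed between the genotypes. It called 0 of 49, as 0.0% of all tested genes were called by edgeR. By the same test 4 members had an unadjusted p under 0.05, as did 1186 of 15943 tested genes. DESeq2 and limma voom called 0. The WT estimate exceeded the Tim4KO estimate for 41 of 49, with a median log2 interaction of -0.16 against 0.01 over all tested genes. Without Tim4KO naive 1 that median was 0.017, against 0.022 over all tested genes, and with upper-quartile scaling it was -0.03 against 0.13 over all tested genes. Psmc1 gave an interaction of -0.70 ± 0.24 (adjusted p = 0.668) and was called only without WT ID8 3, where 2.12% of all tested genes were called.

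The other genes of the pathway were taken from 5 lists written with earlier results known. Their counts stand against 19.5% of all tested genes called higher and 31.8% called in either direction in WT, and 11.5% and 16.6% in Tim4KO. Of 9 further subunits and bound factors, 6 were called higher and 1 lower in WT, and 4 higher and 1 lower in Tim4KO. Uchl5, a deubiquitinase of the 19S particle, changed by 1.21 ± 0.13 in WT and 0.65 ± 0.13 in Tim4KO on the log2 scale, and Usp14, another, by 1.09 ± 0.14 and 0.49 ± 0.14. Pomp, the chaperone of 20S maturation, changed by 0.71 ± 0.17 and 0.84 ± 0.18. Akirin2, which imports proteasomes into the nucleus, fell in both, by 0.34 ± 0.11 and 0.44 ± 0.12. Of 9 factors that deliver ubiquitinated proteins, 7 were called higher in WT and 3 in Tim4KO. Vcp, the segregase that extracts ubiquitinated proteins, changed by 0.89 ± 0.14 and 0.55 ± 0.14, and Rad23b, a shuttle to the proteasome, by 0.86 ± 0.13 and 0.74 ± 0.13. Of 6 genes of ubiquitin and its activation, 3 were called higher in WT and 1 in Tim4KO, among them the activating enzyme Uba1 in both, by 0.65 ± 0.12 and 0.75 ± 0.12.

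Of 7 regulators of proteasome genes, 2 were called higher in WT and none in Tim4KO, where 1 was called lower, so that the share called in either direction was near that of all tested genes. Nfe2l1, the transcription factor that restores proteasome genes when the protease is short, rose by 0.78 ± 0.16 in WT and had a log2 difference of 0.45 ± 0.16 in Tim4KO (adjusted p = 0.0744). Nlrc5, the class I transactivator, rose by 0.76 ± 0.22 in WT and had a log2 difference of 0.033 ± 0.22 in Tim4KO (adjusted p = 0.934). Nfe2l2, the regulator of antioxidant genes, had a log2 difference of -0.024 ± 0.14 in WT (adjusted p = 0.901). In Tim4KO it fell by 0.42 ± 0.14, just within the limit (edgeR adjusted p = 0.0485). Of 10 genes of class I peptide loading, 5 were called higher in WT and 3 in Tim4KO. Calr, a chaperone of the loading complex, changed by 1.21 ± 0.16 in WT and 1.47 ± 0.16 in Tim4KO, and Erap1, the peptidase that trims peptides in the endoplasmic reticulum, by 1.01 ± 0.13 and 0.85 ± 0.13. Over all 41 genes of the 5 lists, 23 were called higher and 1 lower in WT, and 11 higher and 2 lower in Tim4KO, with median log2 changes of 0.45 and 0.25, against -0.04 and -0.05 over all tested genes.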

How the data were processed

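RNA was measured in 12 libraries of sorted macrophages, made with the RNeasy micro and SMART-Seq mRNA LP kits per the labels' protocols. The authors deposited raw counts of reads per gene: the values are whole, and column totals differ. The submitters' processing notes name FastQC and STAR 2.5, and the builds mm10 and GRCm39 without a role; the counting program, annotation, strand and multi-mapping handling are not given in the sources used here. Symbols and transcript lengths came from GENCODE vM21, which named 52081 of 57010 genes, and promoter windows from RefSeq (GRCm38.p6).

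The test was edgeR 4.0.16 (R 4.3.3) on these counts: filterByExpr, TMM, a robust quasi-likelihood fit of all 12 libraries with 1 mean per group and 8 residual degrees of freedom, and Benjamini-Hochberg adjustment over 15943 genes, two-sided, called under 0.05. The 5 comparisons, the class-based rule for the genes given by library and the lists were chosen with earlier results of these data known. That rule takes the 3 immunoproteasome subunits and their counterparts, the 2 smallest and the largest p in WT of each other class, and any member called lower or between genotypes. Floors of 3 counts cover counting error only. Alternatives used DESeq2 1.42.0, limma 3.58.1 voom, other scalings, no filter, a replicate block, a background covariate (summed olfactory and vomeronasal receptor genes) and each library left out. The code was tested on simulated data.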

Additional observations from a re-analysis of the deposited data

How the results depend on the processing

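The count of proteasome genes called higher in WT ID8 was 32 to 45 over the scalings, tests and filters and 36 to 44 with each library left out, all within 1.5 times 41. In Tim4KO it was 27 to 38 over the settings. With each library left out it was 16 to 39, where 7.04% to 20.7% of all tested genes were called. Tim4KO against WT in ID8 cells called 1 gene (Psmc1) with no filter on low counts and 1 (Psmc1) with DESeq2, and 0 to 6 with each library left out. The interaction called 0 to 1 with each library left out, and Tim4KO against WT in naive cells called 0 in every setting. Of the 27 genes that the rule above gives by library, those whose log2 value changed sign were called neither as reported nor under that setting. The cause was not tested. For ID8 against naive in WT, 0 of their values changed sign. Psmf1, which is outside that rule, reached -0.063 in WT in a setting other than those leaving out a single library, and was not called. For ID8 against naive in Tim4KO, the log2 values with each library left out spanned Psmd5 -0.099 to 0.14. DESeq2 size factors within edgeR gave Psmd5 -0.014. Upper-quartile scaling gave Psmd5 -0.078. DESeq2 gave Psmd5 -0.013. For Tim4KO against WT in naive cells, the log2 values with each library left out spanned Psma5 -0.15 to 0.15, Psma6 -0.34 to 0.035, Psmb10 -0.33 to 0.24, Psmb2 -0.27 to 0.059, Psmb6 -0.31 to 0.043, Psmb8 -0.44 to 0.22, Psmb9 -0.40 to 0.31, Psmc6 -0.094 to 0.043, Psmd11 -0.030 to 0.19, Psmd2 -0.13 to 0.063, Psme1 -0.41 to 0.12, Psmg2 -0.33 to 0.062, Psmg3 -0.35 to 0.12. DESeq2 size factors within edgeR gave Psma5 -0.0073. Upper-quartile scaling gave Psma5 -0.042, Psmb10 -0.027. DESeq2 gave Psma5 -0.0072. Fitting only the compared groups gave Psma5 -0.00080. Limma voom gave Psmb10 -0.0045, Psmb9 -0.0015. No filter on low counts gave Psmd2 0.0035. The background covariate gave Psmd2 0.0098. For Tim4KO against WT in ID8 cells, the log2 values with each library left out spanned Psmb10 -0.044 to 0.16, Psmb5 -0.011 to 0.056, Psmb9 -0.31 to 0.086, Psme1 -0.074 to 0.16. The background covariate gave Psmb10 -0.040, Psmb9 0.010. No filter on low counts gave Psmb5 -0.018. Upper-quartile scaling gave Psme4 0.058. Fitting only the compared groups gave Psme4 0.014. For the interaction, the log2 values with each library left out spanned Psma6 -0.30 to 0.077, Psma8 -0.31 to 0.11, Psmb1 -0.17 to 0.14, Psmb10 -0.19 to 0.37, Psmb4 -0.094 to 0.23, Psmb6 -0.19 to 0.17, Psmb7 -0.27 to 0.16, Psmb8 -0.017 to 0.64, Psmb9 -0.43 to 0.29, Psmd8 -0.16 to 0.14, Psme1 -0.082 to 0.46, Psmg2 -0.30 to 0.095, Psmg3 -0.26 to 0.21. Upper-quartile scaling gave Psma8 0.070, Psmb1 0.094, Psmb6 0.097, Psmb7 0.028, Psmd8 0.12, Psmg2 0.020, Psmg3 0.10. No filter on low counts gave Psmb10 -0.053, Psmb4 -0.027. The background covariate gave Psmb10 -0.11, Psmd8 0.032. The log2 ratio of Psmb10 to Psmb7 spanned -0.28 to 0.082 in WT and -0.12 to 0.083 in Tim4KO with each library left out. Same-numbered libraries correlated over 0.1 in 5 of 18 pairs (r -0.498 to 0.423), and 0 libraries correlated best with their own number in every other group. All 3 pairs exceeded 0.1 between WT naive and WT ID8 (0.423, 0.103 and 0.191) and between no other 2 groups. With the replicate block, fitted over all libraries, 41 genes were called in WT (Psmd9 lost, Psmb10 gained) and 38 in Tim4KO, and 0 between genotypes or in the interaction.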
